A study of Mus musculus with 10 samples.

Results

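Liver sinusoidal endothelial cells line the hepatic sinusoids, and 10 genes that mark them or serve as their scavenger receptors were followed in whole liver of lactating mice. The genes were Pecam1, Stab1, Stab2, Lyve1, Clec4g, Kdr, Cdh5, Tek, Fcgr2b and Eng, and every probe set (a set of short probes against 1 transcript) annotated to exactly 1 of these symbols was taken. All 10 genes were found, with 18 probe sets out of 45037 tested. The mice were lactating females of the QSi5 strain, 5 on each of 2 diets from pregnancy to peak lactation. The high glycaemic index (HGI) diet contained 51.4% glucose by weight at 15.6 MJ gross energy per kg, and the low glycaemic index (LGI) diet contained 51.4% of a starch named Hi-Maze, given as high in amylase, at 16.3 MJ per kg. Ages are not given in the sources used here. The labels place every HGI mouse in positive and every LGI mouse in negative energy balance, so that diet and energy balance cannot be told apart. The comparison asks how the transcripts of this cell type differ with the kind of carbohydrate eaten. Values are log2 expression per probe set, 1 array per mouse, differences are HGI minus LGI, and a call needs an adjusted p under 0.05 over all probe sets tested.

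The endothelium of the sinusoid has open pores and no continuous basement membrane, so plasma reaches the hepatocytes directly. Its cells clear waste from the blood by endocytosis: the stabilins, the mannose receptor and the inhibitory Fc gamma receptor take up hyaluronan, modified lipoproteins, collagen fragments and small immune complexes. Their identity and survival depend on VEGF from hepatocytes acting on Kdr, on angiopoietins acting on Tek, and on BMP9 acting through Acvrl1 and Eng.

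No member passed the threshold. The largest difference was that of Stab2, whose mean was 1.70-fold higher in HGI (adjusted p = 0.217, limma), and the mean of each of the 10 genes at its brightest probe set lay above 0, from 0.05 for Eng to 0.76 for Stab2. Over all genes, 41.8% had a mean above 0 in the same direction. The median of the 10 differences was 0.20 (0.12 without HGI 2), beside -0.03 over all 18193 genes. The average of the 10 genes ran from 6.40 to 6.95 log2 in HGI mice and from 6.25 to 6.60 in LGI mice. The diets thus overlapped, and LGI 1 lay above HGI 1, HGI 3 and HGI 4. Members other than Lyve1 varied together across mice, so the 10 signs were not 10 separate observations. Of the 18 member probe sets, 0 were called and 0 separated the diets without overlap, where 0.0644% of all probe sets were called and 1.67% did not overlap. At an unadjusted p under 0.05 and higher in HGI stood 2 of the 18 (Stab2 and Stab1), where 2.76% of all probe sets did. In whole liver, fewer or more endothelial cells and less or more RNA per cell cannot be told apart.

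**Figure D1:**
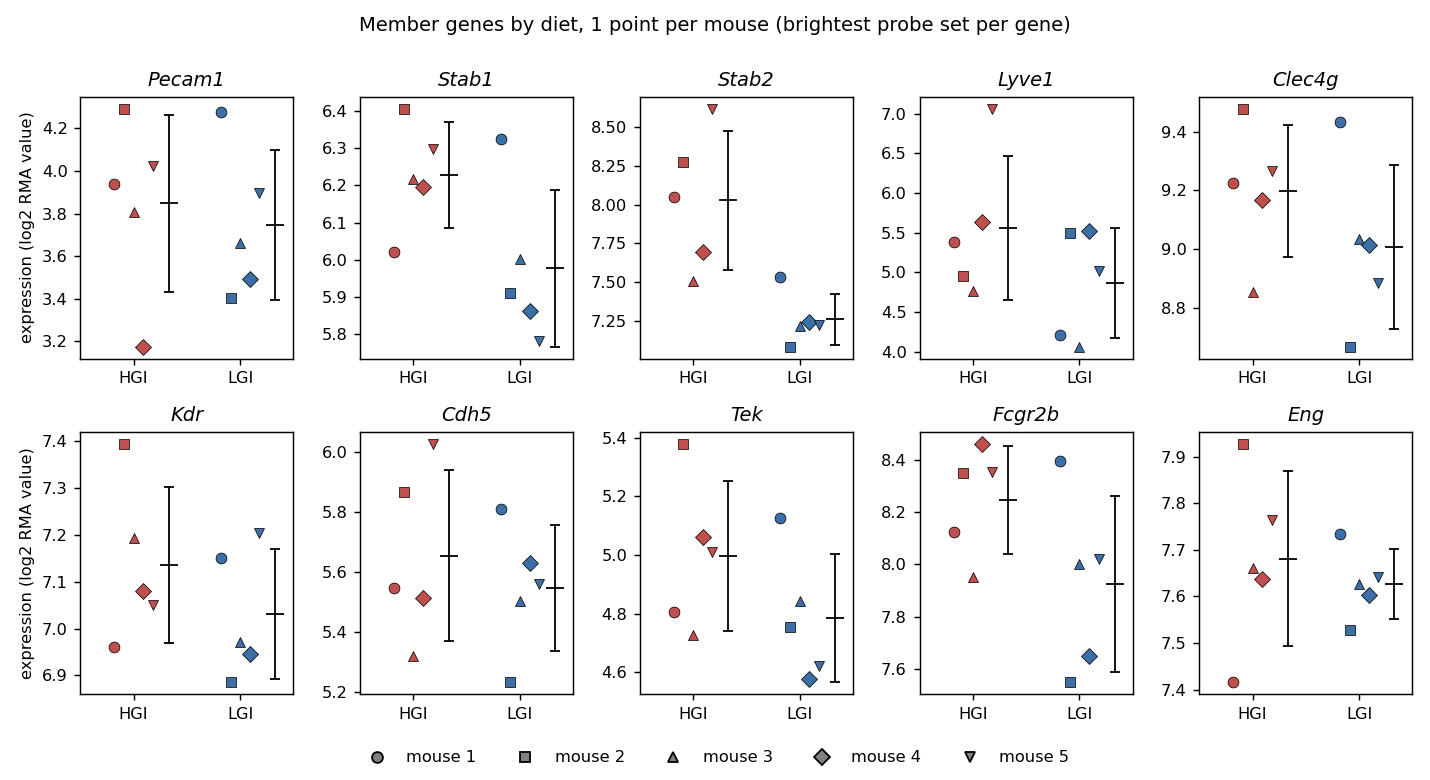
Expression (log2) of the 10 member genes at the brightest probe set of each, with 1 point per mouse. Symbols give the mouse number within the diet (not treated as pairs), and bars give mean and SD over 5 mice. Stab2 shows 4 HGI mice above all LGI mice, while in Clec4g, Tek and Fcgr2b mouse LGI 1 lies among the HGI mice.

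Array quality and labels were looked at first. Array medians lay between 3.91 and 3.97 log2, array HGI 1 had the narrowest spread of values (SD 2.16), and LGI 4 and HGI 1 had the lowest mean correlations with their own diet (0.988 and 0.989). The labelled tissue was clear, since the 8 measured hepatocyte markers averaged 13.23 to 13.49 log2 on every array. Among defining endothelial genes, Stab2, Clec4g, Fcgr2b, Eng, Kdr and Stab1 were bright, but the only Pecam1 probe set averaged 3.85 in HGI and 3.75 in LGI, below the median of every array, as did 1 probe set each of Cdh5 and Fcgr2b. Those 3 probe sets say little about their genes.

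Stab1 and Stab2 are large paralogous scavenger receptors, and the bases upstream of their start sites are shown with those of Tek, because Stab2 had the largest difference, Stab1 is its paralog and Tek followed Stab1 most closely across mice. The sequences come from RefSeq (GRCm38.p6), which held 7 of the 10 members, and each covers 250 bases ending just before the annotated start, 5′ to 3′ on the gene's own strand. Capitals mark the core recognised by ETS factors, searched as AGGAA and CGGAA on both strands. Stab2 lies at chr10:87007943-87008192 (minus strand), Stab1 at chr14:31168642-31168891 (minus strand) and Tek at chr4:94739039-94739288 (plus strand).
Stab2: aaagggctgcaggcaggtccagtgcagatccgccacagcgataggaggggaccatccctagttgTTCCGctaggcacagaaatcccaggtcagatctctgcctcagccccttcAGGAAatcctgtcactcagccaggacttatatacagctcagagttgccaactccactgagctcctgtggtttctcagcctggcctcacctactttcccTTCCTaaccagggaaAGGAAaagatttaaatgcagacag
Stab1: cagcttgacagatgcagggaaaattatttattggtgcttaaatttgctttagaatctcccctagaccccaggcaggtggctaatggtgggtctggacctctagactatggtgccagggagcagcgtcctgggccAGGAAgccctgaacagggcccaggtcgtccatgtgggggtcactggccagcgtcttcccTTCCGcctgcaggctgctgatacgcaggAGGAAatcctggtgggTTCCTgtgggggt
Tek: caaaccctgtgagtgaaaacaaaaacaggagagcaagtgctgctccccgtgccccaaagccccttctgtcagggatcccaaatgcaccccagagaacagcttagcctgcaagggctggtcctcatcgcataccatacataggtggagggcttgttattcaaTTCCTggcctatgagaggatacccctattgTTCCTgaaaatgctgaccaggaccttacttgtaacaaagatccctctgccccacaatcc

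The ETS core occurred 4 times upstream of Stab2, 4 times upstream of Stab1 and 2 times upstream of Tek. It was also found for all 7 members with a sequence, and in 71.4% of 32851 promoters of the same length, with a mean of 1.35 matches. The GATA motif, searched as AGATAA and TGATAA on both strands, was in 0 of the 7 members and in 16.6% of all promoters. With 0 of these 7 members holding a GATA match, an overlap with an ETS match was not possible. Matches are letters in a window and were not tied to any binding in these livers.

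Stab2, the stabilin that clears hyaluronan and heparin from the blood, read 8.05, 8.27, 7.51, 7.69 and 8.62 log2 in mice HGI 1 to HGI 5. In LGI 1 to LGI 5 it read 7.54, 7.09, 7.22, 7.24 and 7.23. The diets met only at HGI 3, which lay just under LGI 1, and the LGI mice were tightly grouped while HGI mice were spread. The means were 8.03 ± 0.44 and 7.26 ± 0.17 (SD, n = 5 each), a difference of 0.76 ± 0.18 (SE) with a 95% interval of 0.38 to 1.15 (two-sided exact permutation p = 0.0159, unadjusted, 1 of 198 probe sets so tested; 0.00794 is the smallest possible). By unadjusted p the probe set ranked 168 of 45037. Leaving out 1 array at a time kept the difference between 0.62, without HGI 5, and 0.89, without HGI 3, and the adjusted p between 0.0687 and 0.503 over all alternatives.

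Stab1, the stabilin shared by sinusoidal endothelium and some macrophages, read 6.02, 6.41, 6.22, 6.20 and 6.30 log2 in HGI mice and 6.32, 5.91, 6.003, 5.86 and 5.78 in LGI mice. LGI 1 lay among the HGI mice and the other 4 LGI mice below all of them. The difference was 0.25 ± 0.11 (SE), 95% interval 0.02 to 0.49, adjusted p = 0.631 (limma). The log ratio of Stab2 to Stab1 within each array, compared after the values were seen, was 0.51 larger in HGI (1.80 ± 0.41 against 1.29 ± 0.12, SD, n = 5 each; two-sided exact permutation p = 0.0317, unadjusted). HGI 3, at 1.29, lay inside the LGI range of 1.18 to 1.44, and the other 4 HGI mice lay above it.

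Lyve1, a hyaluronan receptor of sinusoidal and lymphatic endothelium, had the second largest difference and the widest spread. At its brighter probe set it read 5.39, 4.96, 4.77, 5.64 and 7.07 log2 in HGI mice and 4.21, 5.50, 4.07, 5.53 and 5.02 in LGI mice. Mouse HGI 5 stood far above all others. The difference was 0.70 ± 0.40 (SE, 95% interval -0.17 to 1.57, adjusted p = 0.749, limma). It was smaller, at 0.32, without HGI 5. At the other Lyve1 probe set the difference was 0.17 ± 0.23 (SE), and -0.05 without HGI 5. The probe sets followed each other closely over the 10 arrays (r = 0.956 of deviations from the diet means), and HGI 5 was the highest mouse at both. Both are annotated to the same sequence record, so they are not independent readings. Their correlation without HGI 5 was not computed.

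Clec4g, the lectin LSECtin of sinusoidal endothelium, read 9.23, 9.48, 8.86, 9.17 and 9.27 log2 in HGI mice and 9.43, 8.67, 9.04, 9.01 and 8.89 in LGI mice. The diets overlapped over most of their range, with a difference of 0.19 ± 0.14 (SE, adjusted p = 0.823, limma) that was 0.11 without LGI 2, 0.12 without HGI 2 and 0.30 without LGI 1. Its dim second probe set stood at -0.27 (adjusted p = 0.655), with means of 3.73 in HGI and 4.00 in LGI, close to the array medians, and the 2 probe sets thus disagreed in sign.

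Fcgr2b, the inhibitory Fc gamma receptor that takes up small immune complexes in sinusoidal endothelium and is also carried by B cells and macrophages, had 5 probe sets. The brightest read 8.13, 8.35, 7.95, 8.46 and 8.35 log2 in HGI mice and 8.40, 7.55, 8.003, 7.65 and 8.02 in LGI mice. LGI 1 exceeded all HGI mice but HGI 4. The difference was 0.33 ± 0.15 (SE), with a 95% interval of -0.003 to 0.65 and adjusted p = 0.668 (limma). The other 3 bright probe sets stood at 0.11, 0.23 and 0.29 (0.25, 0.47 and 0.44 without LGI 1), and the dim one at 0.16. The probe sets at 0.11 and 0.23 stood at 0.02 and 0.07 without HGI 2. The 4 bright probe sets varied together across mice, with correlations from 0.772 to 0.976, and by their suffixes (s, a and x) they may read related transcripts too.

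The receptor tyrosine kinases and the co-receptor Eng had small differences in mean. Kdr, the main VEGF receptor, read 6.96, 7.39, 7.19, 7.08 and 7.05 log2 in HGI and 7.15, 6.89, 6.97, 6.95 and 7.20 in LGI mice, a difference of 0.10 ± 0.10 (SE, 95% interval -0.11 to 0.32, adjusted p = 0.882). Tek, the angiopoietin receptor Tie2, read 4.80, 5.38, 4.73, 5.06 and 5.01 in HGI and 5.13, 4.76, 4.84, 4.58 and 4.62 in LGI mice, a difference of 0.21 ± 0.13 (SE, 95% interval -0.08 to 0.50, adjusted p = 0.775). In both genes the diets overlapped, and HGI 2 was the highest mouse of all. Eng, or endoglin, the co-receptor for BMP9 and TGF-beta, read 7.42, 7.93, 7.66, 7.64 and 7.76 in HGI and 7.73, 7.53, 7.63, 7.603 and 7.64 in LGI mice, a difference of 0.05 ± 0.10 (SE, 95% interval -0.15 to 0.26, adjusted p = 0.946), and its dimmer probe set stood at -0.14. HGI 1 was the lowest and HGI 2 the highest mouse of either diet at the brighter Eng probe set. Without HGI 2 the differences were -0.01 for Eng, 0.04 for Kdr and 0.12 for Tek. Kdr stood at 0.07 without LGI 2, and Eng at 0.12 without HGI 1 and 0.03 without either HGI 5 or LGI 2.

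The junction proteins differed by less than the spread between mice. Cdh5, VE-cadherin of endothelial adherens junctions, read 5.55, 5.87, 5.32, 5.51 and 6.03 log2 in HGI and 5.81, 5.23, 5.50, 5.63 and 5.56 in LGI mice, a difference of 0.11 ± 0.14 (SE, 95% interval -0.19 to 0.41, adjusted p = 0.918). It was 0.01 without HGI 5, 0.03 without LGI 2, 0.05 without HGI 2, 0.17 without LGI 1 and 0.19 without HGI 3. Pecam1, the adhesion molecule CD31 of endothelium, platelets and leukocytes, stood at 0.10 ± 0.20 (SE) on its dim probe set, and ranged from -0.01 without HGI 2 to 0.27 without HGI 4. For these genes the intervals leave room for differences in either direction.

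**Figure D2:**
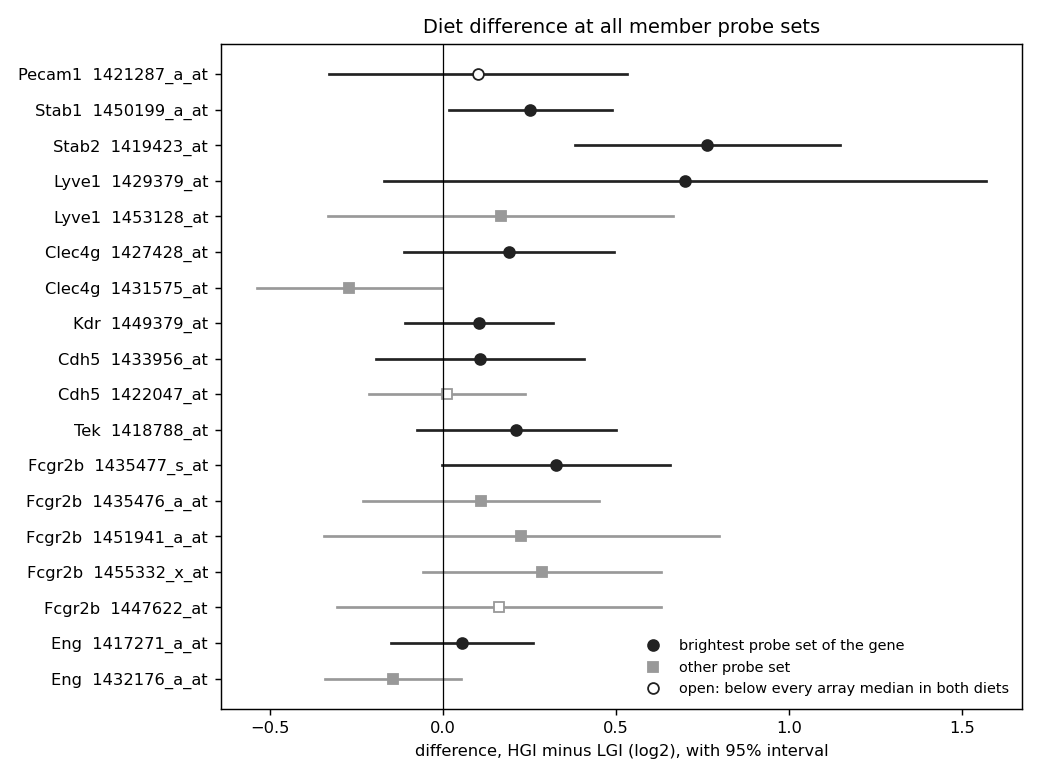
Difference between the diets (HGI minus LGI, log2) at the 18 member probe sets, with 95% intervals from the limma fit. Only the intervals of Stab2 (0.38 to 1.15), Stab1 (0.02 to 0.49) and the dimmer Clec4g probe set, which lies below 0, leave out 0, and none of the 18 passed the adjusted threshold.

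Across mice the members varied together apart from Lyve1. Measured as deviations from the diet means over the 10 arrays, all 36 pairs among the other 9 genes had a correlation above 0, with a median of 0.580, and the closest were Stab2 with Cdh5 (0.917) and Stab1 with Tek (0.844). Of the 9 pairs with Lyve1, 7 lay below 0. Mouse LGI 1 was the highest of its diet in 8 of the 10 genes and HGI 2 in 6, while HGI 3 was the lowest in 6 and LGI 2 in 7. LGI 1 and HGI 2 also had the lowest 3′ minus 5′ difference of Actb, a sign of RNA quality. It was 1.30 and 1.25 log2 there, against 1.60 to 2.27 on the other 8 arrays. The same difference of Gapdh was lowest in HGI 2 (0.29), HGI 4 (0.32) and LGI 1 (0.33), and highest in HGI 5 (0.99). The part of RNA quality in the shared variation was not tested. Without LGI 1 and HGI 2 the median correlation of the 36 pairs was 0.283, 28 were above 0 and the lowest was -0.394. Stab2 with Cdh5 then stood at 0.900 and Stab1 with Tek at 0.593. The genes share arrays and normalization, so these correlations are descriptions.

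**Figure D3:**
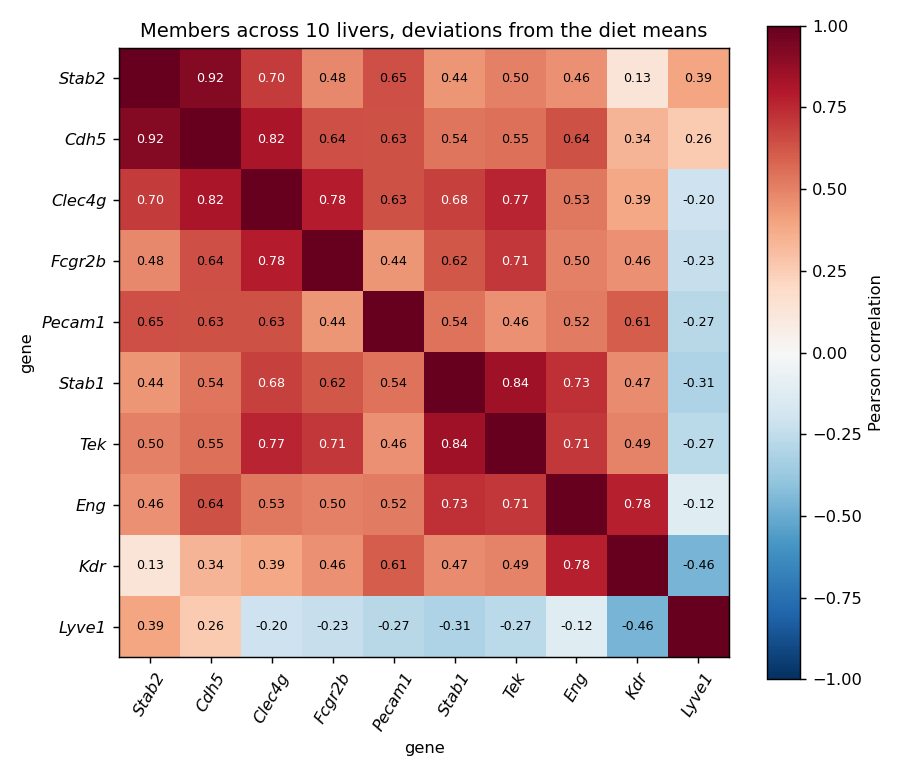
Pearson correlations between the member genes over 10 livers, each value taken as its deviation from the mean of its diet, red above 0 and blue below. The block of 9 genes is red throughout, from 0.13 to 0.92, and Lyve1 stands apart with values from -0.46 to 0.39.

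The gene most like the members was Mrc1, the mannose receptor, itself an endocytic receptor of sinusoidal endothelium and of macrophages. Among 10499 other named probe sets with a mean log2 of at least 6, it had the highest correlation with the average of the members' standardised deviations (r = 0.945 over 10 arrays, and 0.945 without HGI 2 and LGI 1). Rtn4rl1 (0.936), Eif2b2 (0.927), Stt3b (0.919), Pdcl (0.911) and Sel1l (0.906) came next. In each of these LGI 1 was the highest LGI mouse, and in all but Sel1l HGI 2 was the highest HGI mouse. The ranking was not repeated without HGI 2 and LGI 1. Mrc1 read 7.54, 7.87, 7.43, 7.63 and 7.83 log2 in HGI mice and 7.80, 7.03, 7.34, 7.17 and 7.31 in LGI mice, with LGI 1 again among the HGI mice. Its difference was 0.33 ± 0.14 (SE, adjusted p = 0.599, limma).

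Further genes of sinusoidal and general endothelium lay more often above than below 0. Of 23 other sinusoidal endothelial genes 0 rose and 0 fell, 17 had a mean above 0, and their median difference was 0.14. Of 24 pan-endothelial genes 0 passed, 16 lay above 0, and the median was 0.09. Flt4, the VEGF receptor of lymphatic and sinusoidal endothelium, read 6.87 to 7.48 in HGI and 6.60 to 6.86 in LGI mice, narrowly without overlap (0.36 ± 0.11, SE, adjusted p = 0.436). Its dimmer probe set stood at 0.14 (adjusted p = 0.769, limma) with overlap. Lmo2, a haematopoietic and endothelial transcription cofactor, separated the diets without overlap (0.38 ± 0.09, SE, adjusted p = 0.246). Icam2, an endothelial adhesion molecule, and Ets1, a transcription factor of the ETS family, stood at 0.40 and 0.36 (adjusted p = 0.407 and 0.463). The dimmest Ets1 probe set stood at -0.13. Aqp1, a water channel of endothelium, bile ducts and red cells, lay the other way: 6.63, 6.92, 6.33, 6.94 and 6.75 in HGI against 7.73, 7.31, 7.07, 7.57 and 7.39 in LGI mice, without overlap (-0.70 ± 0.14, SE, 95% interval -1.002 to -0.40, adjusted p = 0.121, limma).

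Among the ligands, Vegfa, the hepatocyte-derived growth factor that signals through Kdr, separated the diets with little spread. It read 7.93, 7.95, 8.01, 7.90 and 8.02 log2 in HGI and 7.47, 7.58, 7.64, 7.50 and 7.67 in LGI mice, a difference of 0.39 ± 0.07 (SE, adjusted p = 0.102, limma). Its dimmer probe set stood at 0.11 (adjusted p = 0.870) with overlap. Of the 10 VEGF and angiopoietin genes 0 passed and 7 lay above 0 (median 0.04), Vegfb and Vegfc standing at 0.14 and 0.12. Of 18 genes of the BMP9, BMP10 and TGF-beta axis 0 passed and 8 lay above 0 (median -0.01); Smad6, an inhibitor induced by this pathway, stood at 0.53, and the receptors Tgfbr3 and Tgfbr1 at 0.39 and 0.25, all with adjusted p between 0.621 and 0.722. Smad6 stood at 0.34 without HGI 5, Tgfbr3 at 0.18 without LGI 4 and Tgfbr1 at 0.16 without HGI 4. Below 0 lay 10 of these 18 genes, among them Id1 at -0.19, Id3 at -0.18 and Smad7 at -0.05.

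**Figure D4:**
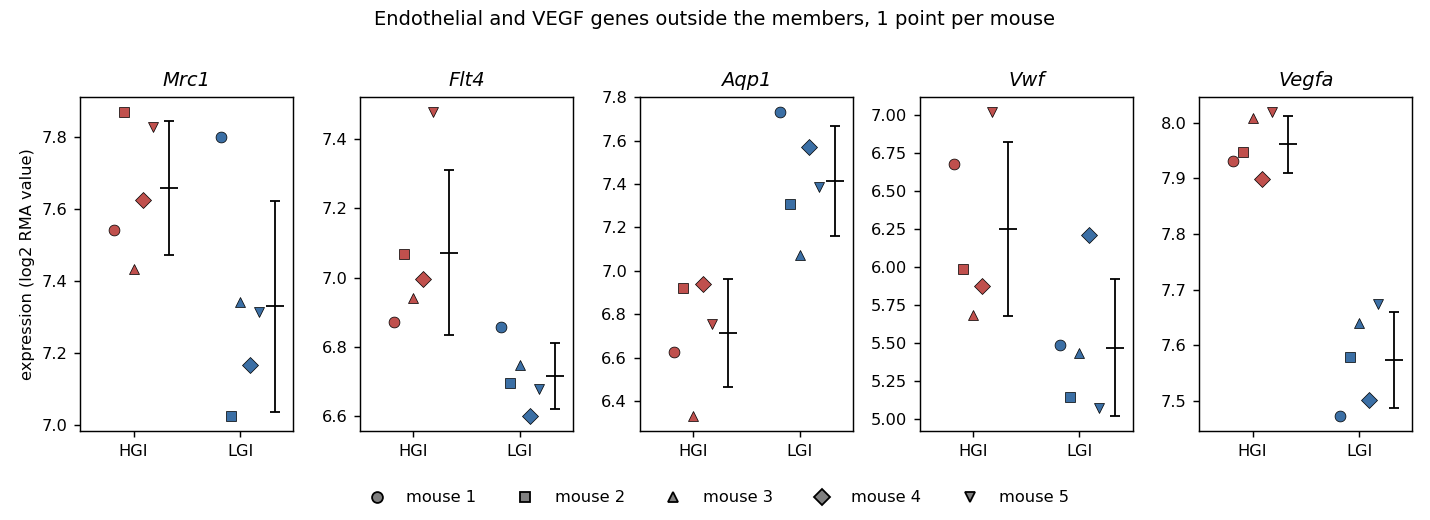
Expression (log2) of Mrc1, Flt4, Aqp1, Vwf and Vegfa with 1 point per mouse and mean ± SD over 5 mice per diet. At the brightest probe set of each gene, Flt4 and Vegfa were higher and Aqp1 lower in every HGI mouse than in any LGI mouse. None passed the adjusted threshold, and the diets overlapped at the dimmer Flt4 and Vegfa probe sets.

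Genes of hyaluronan turnover, other scavenger receptors, Fc receptors and junction partners lay on both sides of 0. Of 9 measured genes of hyaluronan synthesis and turnover 0 passed and the median was 0.04. Ugdh, which makes the UDP-glucuronate needed for hyaluronan and for drug conjugation, stood at -0.67 ± 0.13 (SE, adjusted p = 0.102), with all HGI mice (9.02 to 9.78) below all LGI mice (10.08 to 10.29). It passed, lower in HGI, under 4 of 20 alternatives, among them a second quantile normalization (-0.61, adjusted p = 0.0180). Hmmr and Cemip stood at 0.14 and -0.17 on dim probe sets. Of 14 other scavenger receptors 0 passed, 7 lay above and 7 below 0: Scarb1, the HDL receptor, at -0.33, Cd36, a fatty acid and lipoprotein receptor, at -0.35, and Cd163, the haptoglobin-haemoglobin receptor of macrophages, at 0.34. Of 5 other Fc receptor genes 0 passed (median 0.04), with the common signalling chain Fcer1g at 0.20 and the neonatal receptor Fcgrt at -0.15. Of 10 junction partners 0 passed (median -0.03), and the 3 of smallest p were Ctnna1 at -0.17, Jup at -0.27 and Cdh2 at 0.20.

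Markers of other vessels and cells were set beside the members. Of 9 measured genes of capillary and larger vessels 0 passed, 4 lay above 0 and 5 were below the array medians, with a median of -0.05. Vwf, von Willebrand factor of large-vessel endothelium and platelets, stood at 0.78 ± 0.26 (SE, adjusted p = 0.491, limma): it read 6.68, 5.99, 5.68, 5.88 and 7.02 in HGI and 5.49, 5.15, 5.44, 6.21 and 5.08 in LGI mice. LGI 4 lay among the HGI mice. Selp and Gja5 stood at -0.18 and -0.12. Of 3 lymphatic genes 0 passed (Pdpn -0.14, and Reln, which stellate cells also make, 0.27).

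Kupffer cell markers lay in the same direction as the members. All 10 were above 0, where 41.8% of all genes were, with a median of 0.27, and 0 passed. Whether the 10 signs were separate observations was not tested. The 3 of smallest p were Vsig4 (0.46, adjusted p = 0.525, and 0.36 without HGI 5), Cd68 (0.37, and 0.23 without HGI 5) and Csf1r (0.30, and 0.18 without HGI 5). None of the 10 was below the array medians in both diets, though Timd4 lay close to them (mean 4.04 in HGI and 3.88 in LGI). The average of the 10 ran from 7.62 to 8.33 log2 in HGI and from 7.35 to 8.06 in LGI mice. The diets thus overlapped, and LGI 4 lay above all HGI mice but HGI 5. Over the 10 arrays the deviations of the Kupffer average correlated with those of Cdh5 (0.678), Stab2 (0.621) and Lyve1 (0.577) more than with those of Stab1 (0.209), Fcgr2b (0.152) or Tek (0.031), as a description. Clec4g lay between these groups at 0.442, Pecam1 and Eng stood at 0.157 and 0.129, and Kdr was lowest at -0.259. The part of Kupffer cells in the members' values was not tested.

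The remaining marker lists had medians between -0.08 and 0.06, apart from the erythroid list. Stellate cell and fibroblast genes had a median of 0.01 over 10 (Des -0.21, Rgs5 0.50, Lrat 0.31). Lrat stood at 0.10 without HGI 4, and its dimmer probe set at -0.01. Hepatocyte genes had a median of 0.03 over 8 (Ahsg 0.17, Asgr1 0.29, Cps1 -0.19) and bile duct genes 0.02 over 4 (Sox9 -0.28, Epcam 0.14). B cell genes, of interest for Fcgr2b, had a median of 0.06 over 5 (Cd79a 0.15, Cd22 -0.11), and their average ran from 4.22 to 4.54 in HGI and from 4.17 to 4.34 in LGI mice. T and NK cell genes stood at -0.004 (Ncr1 -0.12, Cd8a 0.15) and neutrophil genes at -0.06 (Mpo -0.12, S100a9 -0.21). Platelet genes, of interest for Pecam1 and Vwf, had a median of -0.08 over 5. Ppbp stood at 0.60, from 0.26 without LGI 2 to 0.99 without LGI 4. Pf4 stood at 0.31, from 0.20 without HGI 5 to 0.54 without LGI 4. The other 3 platelet genes lay below 0, Itga2b at -0.08 and both Gp1bb and Gp9 at -0.09. No gene of these lists passed. The 4 measured erythroid genes had a median of 0.72. Their average was 6.12 to 6.90 in HGI against 5.29 to 6.10 in LGI mice, without overlap. These genes were uneven: Slc4a1, the red cell anion exchanger, stood at 2.25 and Alas2 at 1.34, but Klf1 at 0.08 and the dim Epb42 at 0.10. Slc4a1 (adjusted p = 0.0625) passed under 6 of 19 alternatives, and rose at a dimmer probe set (adjusted p = 0.0211). The part of red cell RNA in the values of Aqp1 and the members was not tested.

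**Figure D5:**
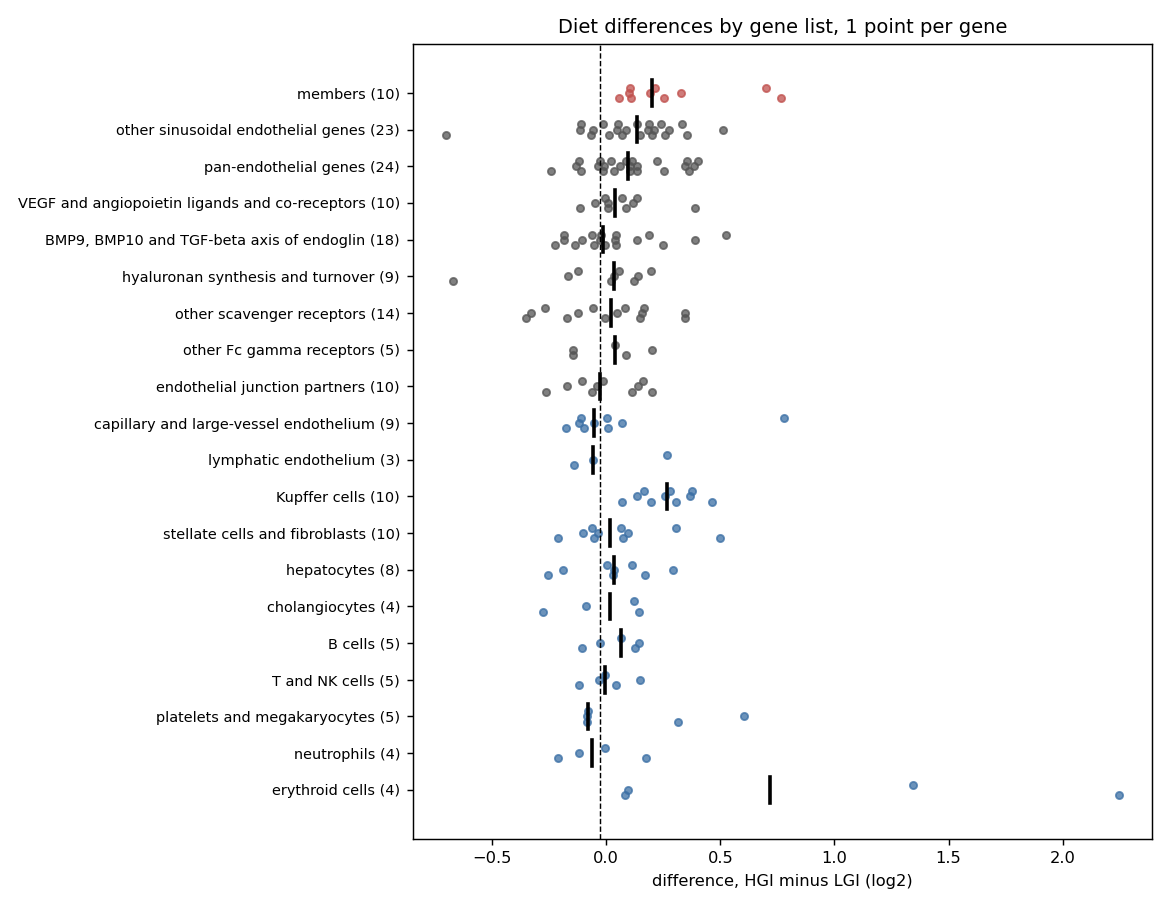
Difference between the diets (HGI minus LGI, log2) for each gene of the members (red), of the related pathway lists (grey) and of the marker lists (blue), with measured genes in parentheses, black bars at the medians and a dashed line at the median of all genes (-0.03). The members (median 0.20), Kupffer cell markers (0.27) and the 4 erythroid genes (0.72) lie above 0 throughout, and the other endothelial lists lie on both sides.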

How the data were processed

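Liver RNA of 10 mice was hybridised to Affymetrix arrays, 1 array per mouse, after biotin labelling, per the labels' protocols. The authors' deposited values are log2 expression per probe set; the submitters' processing notes list RMA, run in R 2.6.1. Their settings are not given in the sources used here.

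From these values 64 control probe sets were dropped and 45037 tested with limma 3.58.1 (R 4.3.3), HGI against LGI, with no covariate and no filter, adjusting by Benjamini-Hochberg over all of them. Adjusted p-values are limma's unless another test is named. Single probe sets also had a two-sided exact permutation test over the 252 assignments of mice. Symbols came from the platform annotation, updated by gene ID (34741 of 34945 matched, 0 changed). A gene is represented by its probe set of highest mean. The members and the gene lists were chosen with earlier results of these data known. Named genes outside the members were, in each list, those with a passing probe set, otherwise the 3 of smallest p (2 in lists of 6 or fewer); the 6 most similar genes were added. The fit was tested on simulated data. Replicate numbers were not treated as pairs in the main fit. The number of arrays limits precision, and the mice being separate animals, p-values measure the spread between them.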

Additional observations from a re-analysis of the deposited data

Results flagged for a closer look

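The second Lyve1 probe set read 5.546 log2 in mouse HGI 5 against 4.337 to 4.557 in the other 4 HGI mice, a gap large for 5 animals. It was 1 of 36 sets of 5 values examined, where chance gives about 1.8.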

How the results depend on the processing

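Over all tested probe sets, 29 passed; the count was 63 after quantile normalization again, 17 after median centring, 64 with array weights, 58 without HGI 1 and LGI 4, 33 with the replicate block, and 5 to 49 with 1 array left out. An alternative chosen after seeing the data, without HGI 5 and LGI 1, gave 2. The number of member probe sets past the threshold was 0 under every alternative run, and the median of the 10 members stayed between 0.12 (without HGI 2) and 0.30 (without LGI 1). With 1 array left out, the difference moved by over 1.5 times in 7 of the 10 members (not in Stab1, Stab2 or Fcgr2b at their brightest probe sets) and in 27 of 53 named genes outside the members. The replicate number did not pair mice (correlations of deviations between -0.0526 and 0.0691), and the block changed no member's call. Differences near 0 changed sign: Cd8a -0.0090 to 0.22 with 1 array left out, -0.036 with HGI 1 and LGI 4 left out; dim Cdh5 -0.056 to 0.077 with 1 array left out, -0.020 with HGI 5 and LGI 1 left out; Eif2b2 -0.039 to 0.047 with 1 array left out; Eng -0.0065 to 0.12 with 1 array left out; dim Fcgr2b -0.069 to 0.28 with 1 array left out, -0.00060 with array weights, -0.13 with HGI 1 and LGI 4 left out; the second Lyve1 -0.051 to 0.28 with 1 array left out, -0.18 with HGI 5 and LGI 1 left out; Pdcl -0.099 to 0.025 with 1 array left out; Pecam1 -0.010 to 0.27 with 1 array left out; Rtn4rl1 -0.13 to 0.026 with 1 array left out; S100a9 -0.43 to 0.55 with 1 array left out, 0.098 with array weights, 0.37 with HGI 1 and LGI 4 left out. The cause was not tested.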
